A study of Mus musculus with 127 samples.

Results

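Efr3a and the genes of the complex that holds phosphatidylinositol 4-kinase alpha at the plasma membrane were followed in single mouse striatal neurons carrying a fragment of huntingtin. The kinase, encoded by Pi4ka, makes phosphatidylinositol 4-phosphate, the precursor of the lipids that phospholipase C cleaves and that many channels and receptors need. A palmitoylated EFR3 protein (Efr3a or Efr3b) anchors the complex in the membrane, a TTC7 protein (Ttc7 or Ttc7b) is its scaffold, and a FAM126 protein (Fam126a, also called hyccin, or Fam126b) stabilises it. Pi4kb encodes a related kinase that works mainly at the Golgi apparatus and serves here as the neighbour outside the complex. The 8 genes were taken, by the Ensembl identifier of their symbol, from a table of 53465 genes. Efr3a had been picked because it had been seen higher in 97Q than in 25Q neurons in every batch, so its values are given as descriptions and carry no test.

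The neurons came from the striatum of newborn C57BL/6 mice and grew singly on small islands of cortical astrocytes. A lentivirus gave them exon 1 of human HTT, joined to GFP, with 97 glutamines (97Q, the expanded form) or 25 glutamines (25Q, a normal length). The promoter and the level of the transgene are not given, the mouse's own Htt gene stays in place, and an exon 1 fragment is not the whole protein. RGFP109, which blocks HDAC1 and HDAC3 (enzymes that take acetyl groups off histones), was added at 100 nM from day 6 in culture and renewed every few days, and other neurons received its DMSO vehicle. Each cell was drawn into a patch pipette on day 15 after electrical recording. There were 26 neurons with 97Q and RGFP109, 26 with 97Q and vehicle, 23 with 25Q and RGFP109 and 29 with 25Q and vehicle, plus 14 untreated cortical astrocytes and 9 vehicle-treated neurons infected with an empty vector.

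Cells of 1 group are not replicates of a condition, and no animal or culture is labelled. Counts were therefore added up over the cells of a group within each of the 3 labelled batches, with batches as replicates (n = 3). Levels are counts per 1000000 (CPM) of all counts in a sum or a cell. A sum of a huntingtin group held 3 to 15 cells and 8665881 to 76217208 counts. The astrocytes and empty vector neurons were in batch 3 only, so they have 1 sum each and no test. Gad1, Gad2 and Snap25 had counts in every neuron, but also in 10, 9 and 9 of 14 astrocytes. Their medians were 495 to 2606, 559 to 1785 and 1689 to 3422 CPM in the neuron groups. In the astrocytes they were 0.194, 0.134 and 0.324 CPM, so by level the label of GABAergic neuron was met. Slc32a1, the other GABAergic marker, had medians of 8.57 to 12.0 CPM in the neuron groups and no count in some huntingtin neurons. Of the 12 markers of striatal projection neurons, Meis2, Foxp1 and Pde10a had medians of 140.4 to 287, 16.3 to 88.8 and 4.92 to 151 CPM in the neuron groups, while Drd1 and Drd2 had medians of at most 1.17 CPM. Meis2 also had a median of 111 CPM in the astrocytes. No 2 cells had identical counts.

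Efr3a differed between the huntingtin groups chiefly through its low level in 25Q neurons with vehicle. Efr3a (chromosome 15, 65787034 to 65873816, plus strand, GRCm38) had 294, 115 and 69.2 CPM in batches 1, 2 and 3 of the 97Q neurons with RGFP109. The 97Q neurons with vehicle had 205, 166 and 89.0 CPM. The 25Q neurons with RGFP109 had 99.8, 239 and 83.5 CPM, and the 25Q neurons with vehicle had 50.0, 65.9 and 29.0 CPM. The 25Q vehicle sum was the lowest of the 4 in each batch, while the order of the other 3 groups changed between batches. The group means were 159 ± 119, 154 ± 59.2, 141 ± 85.3 and 48.3 ± 18.5 CPM in the same order of groups (SD, n = 3 each). The first 3 means lie well within one another's spread.

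In batch 3 the empty vector neurons gave a level for neurons without huntingtin exon 1. Efr3a had 41.03 CPM in the astrocytes and 79.1 CPM in the empty vector neurons, with exact Poisson intervals of 39.8 to 42.3 and 76.5 to 81.8 CPM. Such intervals cover counting error only, because PCR copies of 1 molecule were not told apart. The ratio to the empty vector neurons was 0.875 in 97Q neurons with RGFP109, 1.13 in 97Q neurons with vehicle, 1.06 in 25Q neurons with RGFP109 and 0.367 in 25Q neurons with vehicle. In that batch the 97Q vehicle level was thus close to that of the empty vector neurons, and the 25Q vehicle level was below even the astrocytes. This ordering has no replicate above the cell.

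Efr3a ran from 0.0 through a median of 64.1 to 726 CPM in 97Q neurons with RGFP109, and from 0.327 through 128 to 379.6 CPM in 97Q neurons with vehicle. It ran from 0.0 through 82.4 to 344 CPM in 25Q neurons with RGFP109, and from 0.0 through 17.0 to 212 CPM in 25Q neurons with vehicle. The median was 26.0 CPM in astrocytes and 107 CPM in empty vector neurons. A level of at least 100 CPM was reached by 10 of 26, 15 of 26, 11 of 23 and 2 of 29 neurons of the 4 huntingtin groups in that order, by 1 of 14 astrocytes and by 6 of 9 empty vector neurons. Most 25Q vehicle neurons still had a count of Efr3a, 27 of 29.

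**Figure D1:**
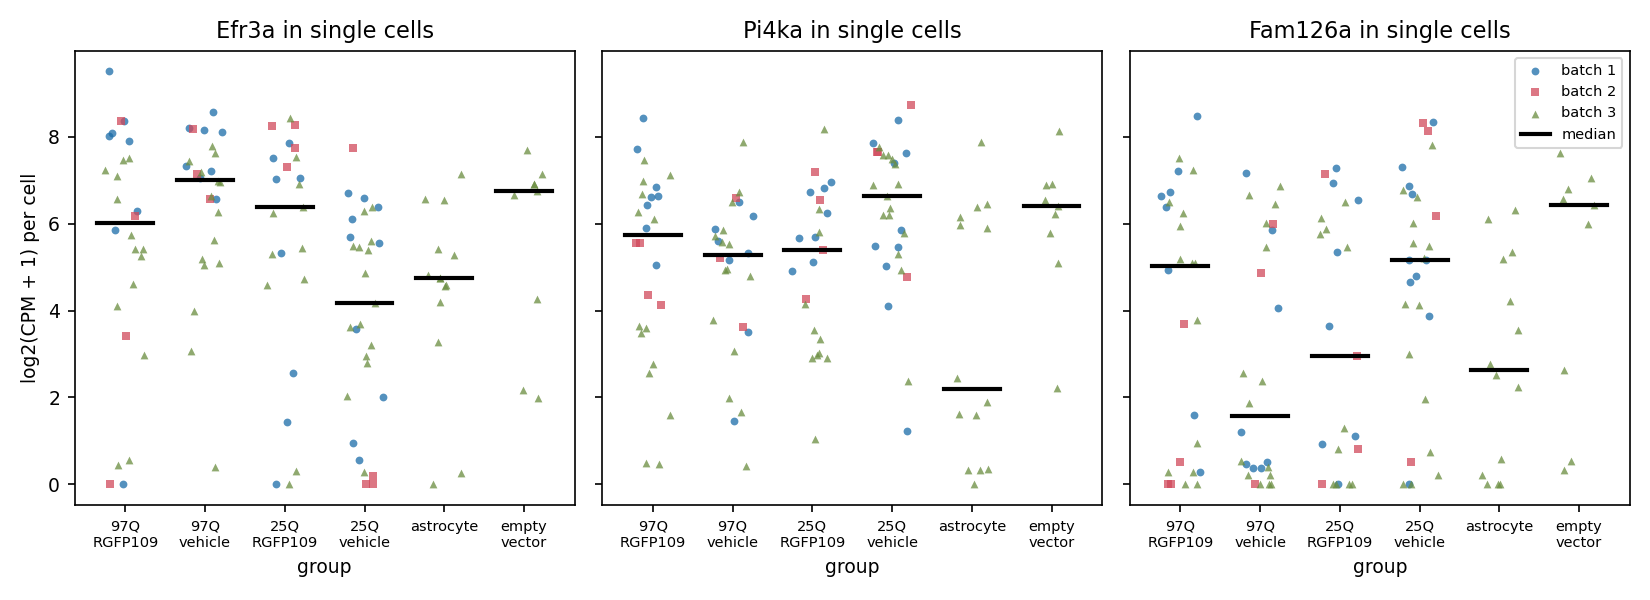
Each point is 1 cell, with its level of Efr3a, Pi4ka or Fam126a as log2(CPM + 1) on the vertical axis, the 6 groups on the horizontal axis, the batch by colour and shape, and the group median as a bar. For Efr3a the 25Q vehicle median (17.0 CPM) sits below the medians of the other neuron groups, while for Pi4ka the 25Q vehicle median (97.8 CPM) is above them.

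Under vehicle, Efr3a was higher in 97Q than in 25Q neurons in 3 of 3 batches, by 2.02, 1.32 and 1.58 on the log2(CPM + 1) scale, and the 3 sums of each group did not overlap. The fit gave a log2 fold change of 1.62 ± 0.43 (SE). Under RGFP109 the differences were 1.55, -1.05 and -0.27 and the groups overlapped, with a fitted log2 fold change of 0.14 ± 0.43. Averaged over both treatments, the within-batch difference was 1.78, 0.13 and 0.66, above 0 in 3 of 3 batches, and the fitted value was 0.88 ± 0.30. The average being above 0 in batches 2 and 3 came from the vehicle neurons, since the RGFP109 neurons went the other way there. Because the rule used these contrasts, no p is given for them. Of all 15247 genes tested, 3.76% were higher without overlap under vehicle and 3.57% under RGFP109.

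The level of Efr3a with RGFP109 was compared with vehicle within each repeat length. In 25Q neurons it was higher with RGFP109 in 3 of 3 batches, by 0.98, 1.84 and 1.49 on the log2(CPM + 1) scale, without overlap, beside 2.88% of all genes. The fitted log2 fold change was 1.53 ± 0.43. In 97Q neurons the batches gave 0.52, -0.53 and -0.36, and the fitted log2 fold change was 0.06 ± 0.42. The interaction, the difference between the drug's effect in 97Q and in 25Q neurons, was -1.47 ± 0.59. All these comparisons share sums with those that picked Efr3a, above all the low 25Q vehicle sums, so no p is given for them either.

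A single cell carried much of some Efr3a sums. Cell 12 of the 25Q vehicle group held 99.9% of that group's Efr3a counts in batch 2, and without it the remaining 3 cells gave 0.0783 CPM. In the 97Q RGFP109 group, cell 11 held 77.1% of the batch 2 counts, and the level without it was 35.9 CPM. Leaving out the cell with the most Efr3a counts in every sum, a choice made after seeing the data, changed the mean within-batch difference of 97Q against 25Q under vehicle to 3.50, against 1.64 with all cells. The same step gave -0.24 under RGFP109, against 0.08 with all cells. By batch this step gave 2.11, 6.77 and 1.62 under vehicle, so the larger mean came chiefly from batch 2, the batch of cell 12. These are the sums that picked Efr3a, so nothing is read from the direction being kept.

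Of 4 marker lists compared between the vehicle groups, the GABAergic sums did not overlap, while the endothelial, astrocyte and projection neuron sums did. Of single genes, 4.69% were lower without overlap. Within every batch the GABAergic and projection neuron sums were lower, and the endothelial sum higher, in 97Q than in 25Q neurons. For the astrocyte sum the batches disagreed. The summed level of the 7 endothelial and mural markers was 1625, 212 and 146 CPM in 97Q vehicle sums, against 131, 151 and 48.2 CPM in 25Q vehicle sums, and Acta2 was the marker with the highest median. Cldn5, Pecam1, Flt1, Kdr and Rgs5 had medians of 0.0 CPM in every group, and Pdgfrb had a median of 0.0 CPM in every neuron group. In the astrocytes this list summed to 3674 CPM, Acta2 had a median of 602 CPM and Pdgfrb of 4.36 CPM. The summed level of the 12 astrocyte markers was 331, 272 and 140 CPM in 97Q vehicle sums, against 445, 68.03 and 183 CPM in 25Q vehicle sums, and 7663 CPM in the astrocytes. In 11 neurons the astrocyte markers exceeded 671.5 CPM, 10% of the astrocyte median, and 1 of these was an empty vector neuron outside the fits. Without the others, which were of the huntingtin groups, the fitted log2 fold change of Efr3a under vehicle was 1.67 ± 0.61. The 3 GABAergic markers summed to 823, 676 and 1653 CPM in 97Q vehicle sums, against 2038, 2368 and 4713 CPM in 25Q vehicle sums. The 12 markers of striatal projection neurons summed to 664, 849 and 426 CPM in 97Q vehicle sums, against 2025, 3519 and 836 CPM in 25Q vehicle sums. The part of these marker levels in the members' differences was not tested.

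Efr3b (chromosome 12, 3962554 to 4038915, minus strand), the second EFR3 anchor, had a lower mean level than Efr3a per length of exon in each huntingtin group. The gap was smallest in 25Q neurons with vehicle, where batch 1 had 3.54 CPM per kilobase of Efr3b and 4.38 of Efr3a. Its mean level was 2.16, 1.63, 1.62 and 1.97 CPM per kilobase in 97Q RGFP109, 97Q vehicle, 25Q RGFP109 and 25Q vehicle sums, where Efr3a had 14.0, 13.5, 12.3 and 4.24 CPM per kilobase. The sums were 33.7, 0.0 and 33.5 CPM in 97Q neurons with RGFP109, 6.89, 9.46 and 34.4 CPM in 97Q neurons with vehicle, 29.7, 0.0 and 20.8 CPM in 25Q neurons with RGFP109, and 36.7, 5.40 and 19.2 CPM in 25Q neurons with vehicle. Few cells made up these values: in 97Q vehicle neurons of batch 2, 1 cell held 100.0% of the counts. The 2 sums at 0 counts were both of RGFP109 groups in batch 2, with 4 cells each. Counting error alone allows up to 0.232 CPM for 97Q and up to 0.288 CPM for 25Q (3 counts per sum). These limits leave out the spread between cells, and with so few cells, cells holding Efr3b may have been missed. The fitted log2 fold change of 97Q against 25Q under vehicle was 0.29 ± 1.74, an error too wide to place Efr3b on either side of 0.

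Pi4ka (chromosome 16, 17280351 to 17406314, minus strand) encodes the kinase itself. It went the opposite way to Efr3a in 97Q against 25Q under vehicle and in RGFP109 against vehicle in 25Q neurons. The 25Q vehicle sum was the highest of the 4 in batches 2 and 3 but not in batch 1. The 97Q neurons with RGFP109 had 128, 30.9 and 53.6 CPM in batches 1, 2 and 3, and the 97Q neurons with vehicle 46.1, 44.1 and 54.1 CPM. The 25Q neurons with RGFP109 had 76.6, 79.2 and 34.2 CPM, and the 25Q neurons with vehicle 102, 245 and 100.3 CPM. Under vehicle the 97Q sums were lower in 3 of 3 batches and did not overlap the 25Q sums, as was so for 4.69% of all genes. The fitted log2 fold change was -1.61 ± 0.57 and did not pass the adjusted threshold of 0.05 (edgeR quasi-likelihood test, adjusted p = 0.968, lowest over the alternatives 0.148). Its value ran from -2.16 to -0.96 over the alternatives. Under RGFP109 the fitted value was 0.20 ± 0.55 and the groups overlapped.

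With RGFP109 against vehicle, Pi4ka was lower in 25Q neurons in 3 of 3 batches, by 0.41, 1.61 and 1.52 on the log2(CPM + 1) scale, without overlap, beside 3.84% of all genes that were lower without overlap. The fit gave a log2 fold change of -1.29 ± 0.56 (edgeR, adjusted p = 1). In 97Q neurons it was 0.52 ± 0.56 (edgeR, adjusted p = 0.999), and the interaction was 1.81 ± 0.78 (edgeR, adjusted p = 0.999). In batch 3, Pi4ka had 39.3 CPM in the astrocytes and 96.9 CPM in the empty vector neurons. The 25Q vehicle sum was at 1.04 times the empty vector level, and the sums of 97Q with RGFP109, 97Q with vehicle and 25Q with RGFP109 were at 0.554, 0.558 and 0.353 times. In batch 3 the 25Q vehicle neurons were thus the huntingtin group nearest the empty vector neurons for Pi4ka. For Efr3a they were the farthest. Each level is 1 sum with no replicate above the cell. Without the cell with the most Pi4ka counts in each sum, the 25Q vehicle neurons had 92.6 CPM and the empty vector neurons 76.5 CPM.

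Every neuron had a count of Pi4ka, and its spread between cells was wide. The lowest, median and highest levels were 0.389, 52.5 and 342 CPM in 97Q neurons with RGFP109, 0.345, 37.6 and 236 CPM in 97Q neurons with vehicle, 1.06, 40.8 and 287 CPM in 25Q neurons with RGFP109, and 1.36, 97.8 and 425 CPM in 25Q neurons with vehicle. At least 100 CPM was reached by 7 of 26, 2 of 26, 5 of 23 and 14 of 29 neurons. Pooled over batches, the ranges of the groups overlapped widely, and the groups differed in how many cells were high. By batch, the highest 97Q vehicle cell had 89.7, 94.7 and 236 CPM, against 332, 425 and 218 CPM in 25Q vehicle neurons. Without the cell with the most Pi4ka counts in each sum, the mean within-batch difference of 97Q against 25Q under vehicle was -1.73, against -1.48 with all cells.

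Fam126a (chromosome 5, 23915276 to 24030690, minus strand), which encodes hyccin, resembled Pi4ka under vehicle. Its sums were 96.8, 3.25 and 47.4 CPM in 97Q neurons with RGFP109, 23.9, 32.2 and 27.9 CPM in 97Q neurons with vehicle, 53.9, 31.5 and 32.8 CPM in 25Q neurons with RGFP109, and 78.8, 116 and 40.7 CPM in 25Q neurons with vehicle. The 97Q vehicle sums were lower than the 25Q vehicle sums in 3 of 3 batches without overlap, beside the same 4.69% of all genes. In the fit the log2 fold change was -1.53 ± 0.89 (edgeR, adjusted p = 0.968) and its alternatives ran from -2.05 to -1.06. In 25Q neurons RGFP109 gave lower values than vehicle in 3 of 3 batches, by 0.54, 1.85 and 0.30 on the log2(CPM + 1) scale, with overlap, beside 13.9% of all genes lower in every batch, and a fitted log2 fold change of -1.09 ± 0.89 (edgeR, adjusted p = 1). In 97Q neurons the batches disagreed, with 1.97, -2.97 and 0.74. Single cells carried much of some sums. In batch 2, 1 cell held 97.6% of the counts in 97Q and 1 cell 93.0% in 25Q neurons with RGFP109. In 97Q neurons with vehicle, 1 cell held 64.2% in batch 1 and 1 cell 68.1% in batch 2. In batch 3 all 4 huntingtin groups were below the empty vector neurons, at 0.540, 0.318, 0.374 and 0.464 times their 87.7 CPM in the order given above.

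Pi4ka and Fam126a were the members lower in 97Q than in 25Q neurons with vehicle in every batch, so the stretches upstream of their RefSeq starts (GRCm38.p6) are shown. Only bases that no annotated exon covers are given. Capitals mark matches, on either strand, to the searched motifs: the cyclic AMP response element TGACGTCA, the GC box GGGCGG, the CCAAT box CCAAT and the TATA motif TATAAA. The Pi4ka stretch covers bases -250 to -46 from the start (chr16:17406360-17406564, minus strand) and the Fam126a stretch bases -166 to -1 (chr5:24030313-24030478, minus strand). The stretch of Fam126a lies inside that gene's annotated span. RefSeq gives Pi4ka 2 starts, and the stretch shown belongs to the outer one.
Pi4ka: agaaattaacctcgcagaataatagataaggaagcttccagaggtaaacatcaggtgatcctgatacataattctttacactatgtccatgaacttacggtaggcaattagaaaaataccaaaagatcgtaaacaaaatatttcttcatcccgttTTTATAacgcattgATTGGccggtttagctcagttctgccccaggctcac
Fam126a: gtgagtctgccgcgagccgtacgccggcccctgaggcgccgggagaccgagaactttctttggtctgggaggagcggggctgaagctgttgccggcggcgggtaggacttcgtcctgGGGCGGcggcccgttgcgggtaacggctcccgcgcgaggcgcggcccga

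The 205 bases of Pi4ka have 38.0% G and C and 6 CpG dinucleotides, with 1 TATA motif and 1 CCAAT box, both read on the opposite strand. The promoter region taken around each Pi4ka start also holds exons of Snap29, a gene on the opposite strand, so the motifs are not tied to Pi4ka alone. Over all 32851 RefSeq promoters, 9.33% hold the TATA motif and 29.2% the CCAAT box in the same positions. The other Pi4ka start has 92 bases free of exons (chr16:17405894-17405985, minus strand), with 75% G and C and none of the 4 motifs. The 166 bases of Fam126a have 72.9% G and C and 24 CpG dinucleotides with 1 GC box, which 29.6% of promoters hold in those positions. Neither printed stretch holds the cyclic AMP response element, which 0.877% of promoters hold in the positions of the Pi4ka stretch and 1.42% in those of Fam126a. A match is a description of the letters and not a bound site. RefSeq promoters were matched for 7 of the 8 members.

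Fam126b (chromosome 1, 58522806 to 58586323, minus strand), the paralogue of hyccin, had the smallest fitted error of the members and the highest mean level per length in each huntingtin group but 97Q with RGFP109, where Efr3a was higher. Its sums were 111, 209.8 and 88.2 CPM in 97Q neurons with RGFP109, 177, 254 and 131 CPM in 97Q neurons with vehicle, 141, 261 and 157 CPM in 25Q neurons with RGFP109, and 120.2, 439.9 and 134 CPM in 25Q neurons with vehicle. Per kilobase of exon the group means were 11.3, 15.6, 15.5 and 19.2 CPM. Batch 2 was the highest in every group. The fitted log2 fold change of 97Q against 25Q was -0.15 ± 0.33 under vehicle (edgeR, adjusted p = 0.975) and -0.45 ± 0.33 under RGFP109 (edgeR, adjusted p = 0.999). Under RGFP109 it was lower in 3 of 3 batches with overlap, beside 13.3% of all genes lower in every batch. RGFP109 against vehicle in 97Q neurons gave -0.41 ± 0.33 (edgeR, adjusted p = 0.999), also lower in 3 of 3 batches, beside 14.1% of all genes. Leaving out the cell with the most Fam126b counts in each sum turned batch 2 of this comparison to 0.60 on the log2(CPM + 1) scale. Its mean within-batch difference was then -0.02, against -0.50 with all cells. The same step turned batch 1 of 97Q against 25Q under RGFP109 to 0.25. In batch 3 it had 18.0 CPM in the astrocytes against 111 CPM in the empty vector neurons, a ratio of 0.162.

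Ttc7b (chromosome 12, 100300770 to 100520826, minus strand), the more abundant of the TTC7 scaffolds here, was also scarce in astrocytes. It had 2.55 CPM in the astrocytes against 40.4 CPM in the empty vector neurons, a ratio of 0.063. Its sums were 30.1, 4.95 and 13.6 CPM in 97Q neurons with RGFP109, 14.4, 11.1 and 17.7 CPM in 97Q neurons with vehicle, 29.1, 30.5 and 67.5 CPM in 25Q neurons with RGFP109, and 12.6, 14.8 and 31.8 CPM in 25Q neurons with vehicle. In 25Q neurons RGFP109 gave higher values than vehicle in 3 of 3 batches, by 1.15, 0.99 and 1.06 on the log2(CPM + 1) scale, beside 12.2% of all genes higher in every batch. The sums overlapped, and the fitted log2 fold change of 1.10 ± 0.76 did not pass the threshold (edgeR, adjusted p = 1). Without the cell with the most Ttc7b counts in each sum the mean of these differences was 0.27, against 1.07 with all cells. With RGFP109, 97Q against 25Q gave -1.41 ± 0.79 (edgeR, adjusted p = 0.999), lower in 2 of 3 batches.

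Ttc7 (chromosome 17, 87282886 to 87381769, plus strand), the other scaffold, was nearly absent from the counts and was not tested. It had a count in 4 of 26, 5 of 26, 2 of 23 and 9 of 29 neurons of the 4 huntingtin groups, in 1 of 14 astrocytes and in 1 of 9 empty vector neurons. Its highest sum was 4.28 CPM, in 25Q vehicle neurons of batch 3, of which 1 cell held 80.3%. All 4 sums of batch 2 were at 0 counts, which allows up to 0.162 to 0.346 CPM (3 counts per sum) by counting error alone, leaving out the spread between cells. Per kilobase its highest group mean was 0.335 CPM, in 25Q vehicle neurons, against 2.69 CPM for Ttc7b in the same group.

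Pi4kb (chromosome 3, 94974731 to 95006843, plus strand), the Golgi kinase, was low and carried by few cells. Its sums were 35.6, 18.4 and 4.70 CPM in 97Q neurons with RGFP109, 18.8, 1.04 and 2.00 CPM in 97Q neurons with vehicle, 9.38, 41.6 and 6.19 CPM in 25Q neurons with RGFP109, and 14.6, 4.21 and 4.82 CPM in 25Q neurons with vehicle. In 97Q neurons RGFP109 gave higher values in 3 of 3 batches with overlap, beside 9.63% of all genes, and a fitted log2 fold change of 1.74 ± 1.20 (edgeR, adjusted p = 0.999). In batch 2 that difference rested on cell 11 of the RGFP109 group, which held 99.2% of the counts, and without the cell with the most Pi4kb counts in each sum the mean difference was 0.26, against 1.69 with all cells. Of its exon bases, 895 are shared with genes on the opposite strand, and whether counting used the strand is not given in the sources used here, so reads of those genes cannot be told apart from its own there. The same holds for 300 bases of Pi4ka and 582 of Ttc7b, while Efr3a and Fam126a have none.

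**Figure D2:**
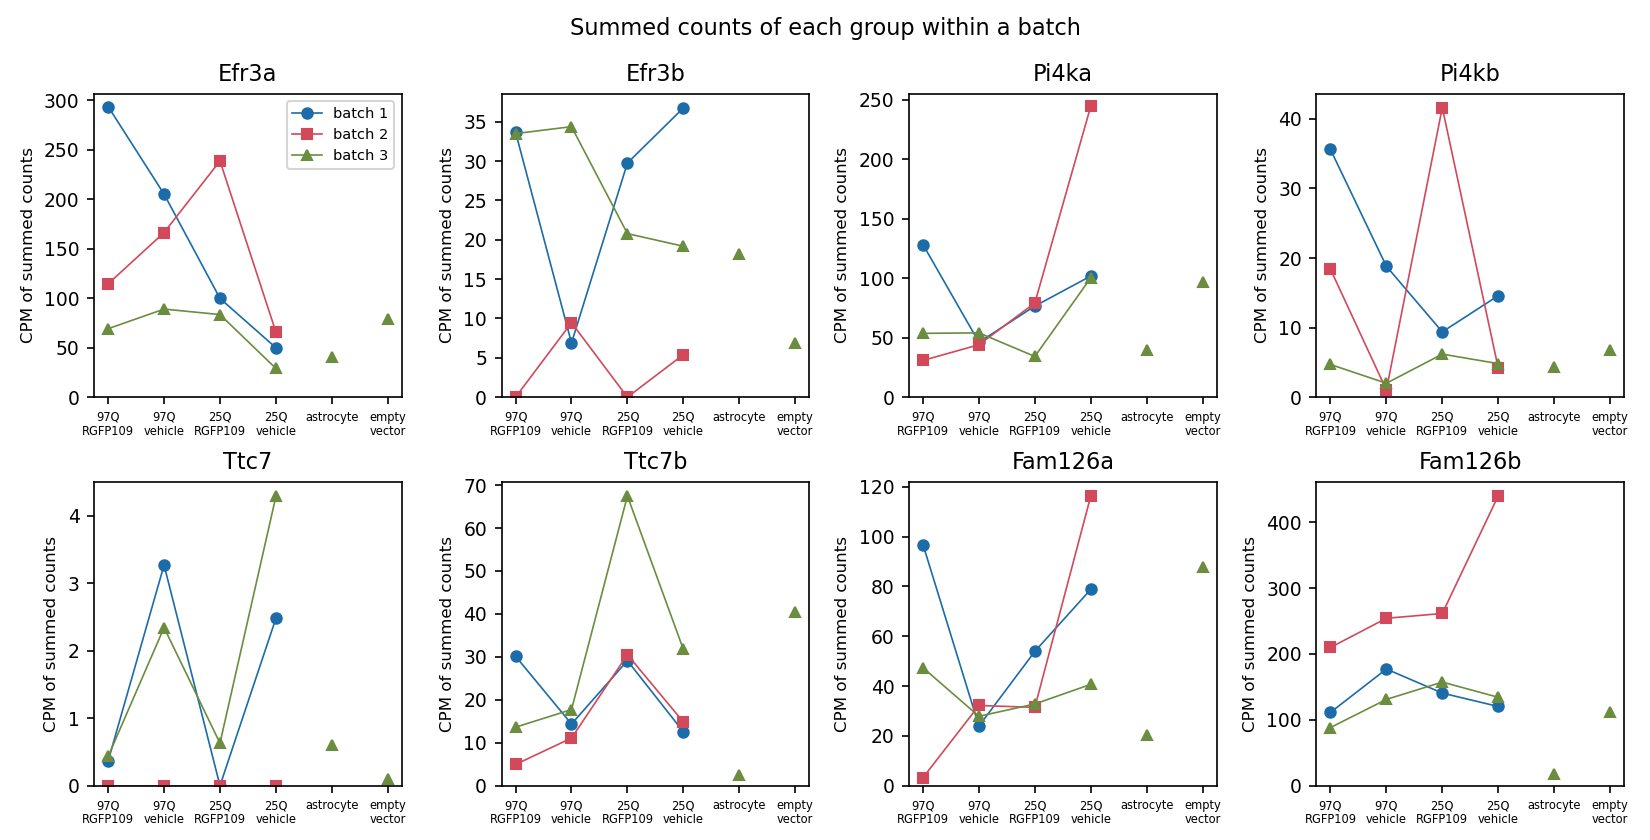
Level of each of the 8 members as CPM of the summed counts on a vertical axis from 0, for the 4 huntingtin groups in batches 1, 2 and 3 (lines join the sums of a batch) and for astrocytes and empty vector neurons in batch 3. The 25Q vehicle sum is the lowest of its batch for Efr3a and above 97Q vehicle in each batch for Pi4ka and Fam126a.

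None of the members given a test passed the adjusted threshold in the genome-wide fit. Beside Efr3a, 6 members were tested, since the filter on low counts removed Ttc7. Under vehicle 0 of the 6 passed with 97Q against 25Q (edgeR), as did 0.0% of all genes, and 1 of the 6, Pi4ka, had an unadjusted p under 0.05, as had 3.96% of all genes. Under RGFP109 0 of 6 passed, beside 0.0% of all genes, and 0 had an unadjusted p under 0.05, beside 3.71%. In the average over both treatments the counts were 0 and 0, beside 0.0197% of all genes called (3 genes, Gad1, Nnat and Gm23134, all lower in 97Q neurons and named after their values were seen) and 5.52% with an unadjusted p under 0.05. RGFP109 against vehicle gave 0 and 0 of 6 in 97Q neurons, beside 0.0% and 2.47% of all genes. In 25Q neurons it gave 0 and 1 (Pi4ka), beside 0.0% and 2.52%. The interaction gave 0 and 1 (Pi4ka), beside 0.0% and 2.61%. DESeq2 and limma on cell means likewise called 0 of these 6 members in each of the 6 comparisons, although DESeq2 called 1.4% of all genes under vehicle, 1.86% under RGFP109 and 2.1% in the average, 0.728% for RGFP109 in 97Q and 1.08% in 25Q neurons, and 0.485% for the interaction, and limma called 0.00656% in the average and 0.0% elsewhere. DESeq2's calls under vehicle include Efr3a, whose choice used that contrast, so nothing is read from it. A member that misses the threshold may still differ, as the errors in the plot of fitted differences show.

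**Figure D3:**
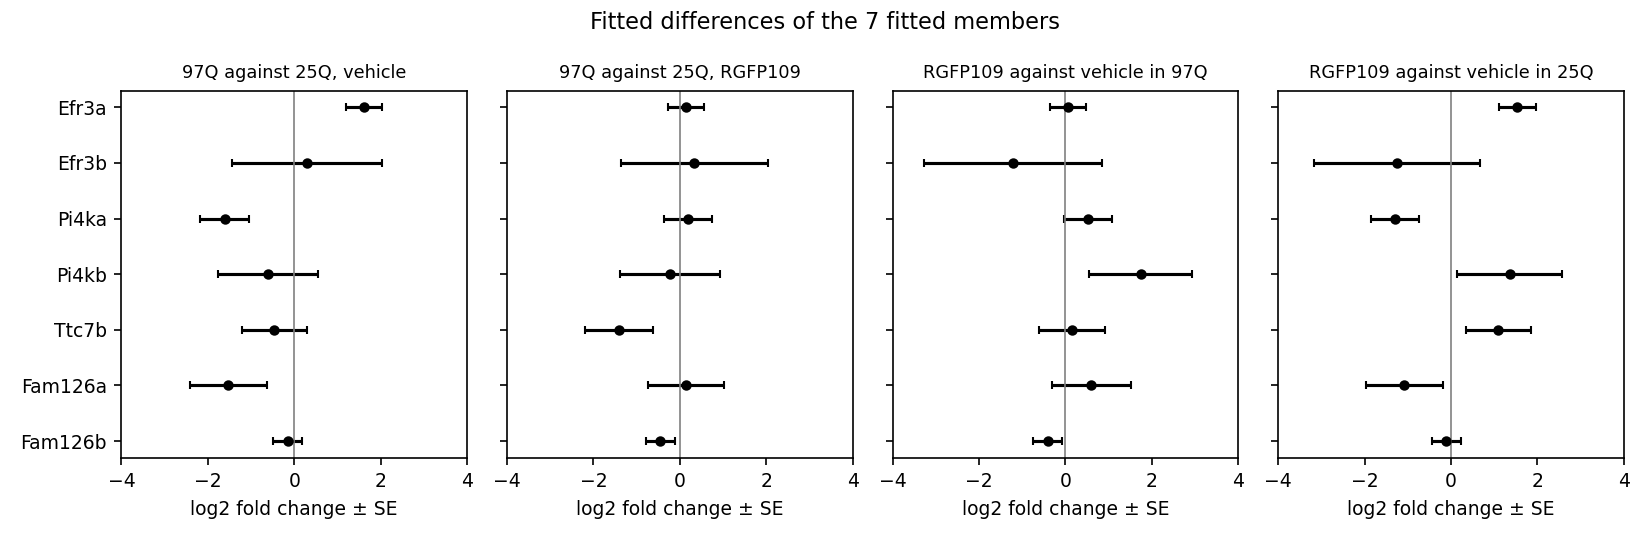
Fitted log2 fold change of the 7 fitted members with its standard error (bars) in 4 comparisons that share sums with one another, with 0 marked by a vertical line. Under vehicle Efr3a lies at 1.62 and Pi4ka and Fam126a at -1.61 and -1.53, while under RGFP109 the 3 lie between 0.14 and 0.20.

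The wider phosphoinositide pathway was described with a list of 62 genes for lipid kinases, phosphatases, transfer proteins and phospholipase C, of which 55 were tested. None passed in any of the 6 comparisons (edgeR). Under vehicle 24 had a higher and 31 a lower fitted level in 97Q neurons, with a median log2 fold change of -0.10 beside 0.06 over all genes, and 4 (7.27%) had an unadjusted p under 0.05, beside 3.96% of all genes. Averaged over both treatments the median was -0.05 beside 0.04 over all genes, and 6 (10.9%) had an unadjusted p under 0.05, beside 5.52% of all genes. RGFP109 against vehicle gave medians of 0.27 in 97Q neurons, beside -0.04 over all genes, and -0.08 in 25Q neurons, beside 0.00 over all genes.

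The 6 list genes with the smallest p in the averaged comparison are named. Pi4k2a, a type II kinase that makes the same lipid on endosomes and the trans-Golgi network, had 69.5, 78.6 and 19.7 CPM in 97Q neurons with RGFP109, 45.3, 55.97 and 47.9 CPM in 97Q neurons with vehicle, 29.2, 34.04 and 11.3 CPM in 25Q neurons with RGFP109, and 12.7, 11.4 and 22.0 CPM in 25Q neurons with vehicle. The 97Q value was the higher in every batch under both treatments, and how many of all genes share this was not counted. The averaged log2 fold change was 1.42 ± 0.48 (edgeR, adjusted p = 0.881). Pitpna, a carrier of phosphatidylinositol between membranes, had 330.2, 549 and 89.8 CPM in 97Q against 174, 100.2 and 57.99 CPM in 25Q neurons with vehicle, and an averaged value of 0.74 ± 0.29 (edgeR, adjusted p = 0.881). Pip5k1c, which turns the lipid into phosphatidylinositol 4,5-bisphosphate at synapses, gave 0.62 ± 0.27 (edgeR, adjusted p = 0.894). Plcb1, the phospholipase C downstream of Gq-coupled receptors, had 158, 45.2 and 105 CPM in 97Q against 267, 100.3 and 183 CPM in 25Q neurons with vehicle, and an averaged value of -1.10 ± 0.33 (edgeR, adjusted p = 0.881). Inpp5f, a phosphatase of phosphatidylinositol 4-phosphate, gave -0.51 ± 0.19, and Pitpnm2, a transfer protein, -2.55 ± 0.96 (edgeR, adjusted p = 0.881 for each). They were chosen by their p in this comparison, so their values describe the top of the list.

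Over single neurons the members did not rise and fall as a set. Across all neurons the 28 pairs of members had a Spearman rho of -0.19 to 0.38 with a median of 0.03. The highest was Efr3a with Pi4kb, which fell to 0.18 when ranks were taken within each group and batch. Efr3a and Pi4ka had a rho of -0.05. These values are descriptions, since the cells share batches and many counts are at or near 0. Efr3a had a rho of -0.02 with the total counts of a cell and 0.16 with the number of genes detected.

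**Figure D4:**
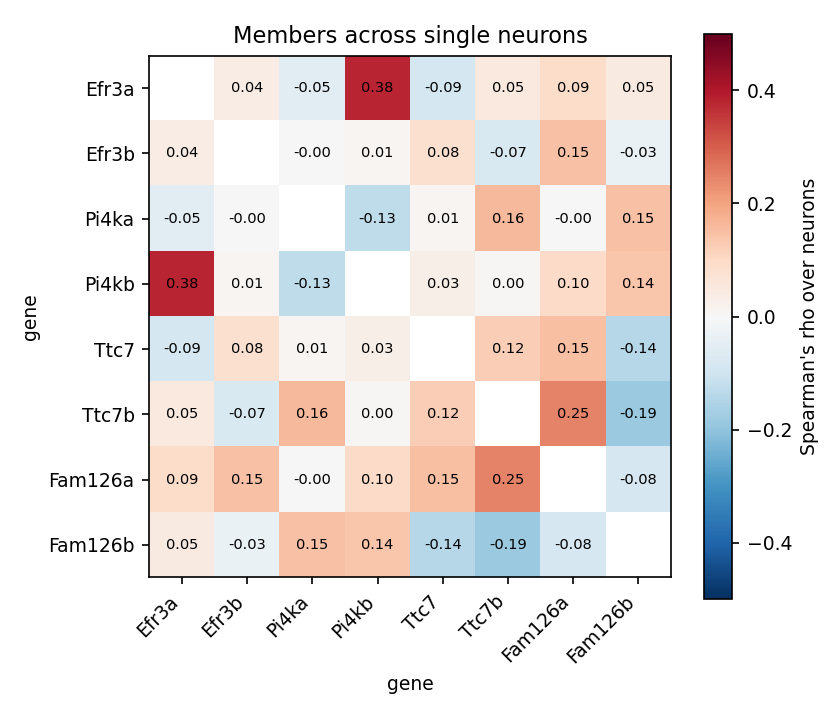
Spearman's rho between each pair of the 8 members over all neurons, as colour and number. Apart from Efr3a with Pi4kb (0.38), the values lie between -0.19 and 0.25.

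Among 11014 genes with a count in at least 50% of the neurons, those most like Efr3a by Spearman's rho over all neurons were Insig1 (0.47), Gnb1 (0.45), Wtap (0.45), Clint1 (0.44) and Prdx1 (0.43), against a median of 0.05 over all these genes. Insig1 holds the sterol sensor SCAP in the endoplasmic reticulum, Gnb1 is a G protein beta subunit, Wtap belongs to the complex that methylates adenosine in RNA, Clint1 is a clathrin adaptor and Prdx1 a peroxidase. Within group and batch their rho was 0.34, 0.30, 0.31, 0.21 and 0.29. Pi4kb ranked 21st with 0.38, and the other fitted members had -0.05 to 0.09.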

How the data were processed

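The deposited values are raw counts of reads per gene in 127 single cells, made by the authors with FastQC, Trimmomatic 0.36, STAR 2.5 and HTSeq 0.9.1 on GRCm38/mm10, per the submitters' processing notes. Cells held 999700 to 9263305 counts. Counts were summed per group and labelled batch into 12 sums. edgeR 4.0.16 (R 4.3.3; TMM, robust quasi-likelihood, group and batch terms, 6 residual degrees of freedom) tested 15247 genes that passed filterByExpr and had a count in at least 20% of neurons, two-sided, with Benjamini-Hochberg adjustment over all of them. The p-values measure spread between batches only, since no animals are labelled. Sums of the same batch deviated together (r 0.0977 to 0.298), against -0.187 to 0.034 for different batches and groups, and the label batch gives the pairing. The common biological coefficient of variation was 0.927. Intervals are exact Poisson at 95%, for counting error only. Alternatives used DESeq2 1.42.0, limma 3.58.1 on log2(CPM + 1), other scaling and filters, and left-out batches. The 8 members were named in every comparison, the list genes by the 6 smallest p, and the likest genes by the 5 highest rho. Members and lists were chosen with earlier results of these data known. Positions come from GENCODE M21 and upstream sequences from RefSeq. The edgeR fit was also run on simulated sums. Its recovery of changed genes at the spread of these data is not given here, so nothing about power is drawn from that run.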

Additional observations from a re-analysis of the deposited data

Results flagged for a closer look

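The 9 empty vector neurons were examined for a single cell far from the others, by the gap to its nearest neighbour over the group's range (critical value 0.493). Chance sets apart about 1 in 20 groups when values are normally distributed, which counts of single cells are not, and 4 of the 8 members examined were set apart. Pi4ka reached 279 CPM in cell 7, while the other cells had 3.68 to 119 CPM, and the gap was 0.581 of the range. Efr3b reached 49.7 CPM in cell 8, against at most 3.08 CPM in the others. Pi4kb reached 30.7 CPM in the same cell 8, against at most 14.5 CPM. Ttc7 had 0.732 CPM in cell 3 and 0.0 CPM in the other cells, where any 1 cell with a count is set apart. The interaction of repeat length and RGFP109 passed for none of the 6 members tested, and no member moved one way in every batch under one condition and the other way in every batch under the other.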

How the results depend on the processing

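Of 398 recomputed values of single members, 357 kept their direction and their side of the threshold or, where untested, moved by less than the spread between batches, 36 turned sign and 5 moved by more than that spread; none of the 6 members given a test passed the threshold under any alternative. Efr3a, which carries no test, had an adjusted p under the threshold with DESeq2 alone, for 97Q against 25Q under vehicle, the contrast that picked it. The cause of the changes was not tested. DESeq2 called 214 genes for 97Q against 25Q under vehicle, 284 under RGFP109 and 320 in the average, 111 for RGFP109 against vehicle in 97Q and 165 in 25Q neurons, and 74 for the interaction, where edgeR called 0, 0, 3, 0, 0 and 0. Without the filter on low counts, which raised the number of genes tested, edgeR called 3 genes under RGFP109, 5 in the average and 1 for RGFP109 in 97Q neurons. In the average, limma on cell means called 1 gene, and leaving out any batch gave 0 to 0 genes.

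With the replicate block (the pairing by batch) left out, the average had 0 genes called, and the log2 fold change of Efr3a was 1.59 for 97Q against 25Q under vehicle and 1.52 for RGFP109 in 25Q neurons. Efr3b turned to -0.23 (97Q against 25Q, vehicle) and 0.35 (RGFP109 in 97Q), Pi4kb to 0.10 (97Q against 25Q, RGFP109) and Fam126b to 0.11 (interaction). No other member changed sign or call without the block.

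With limma on cell means, which weights each cell equally, Efr3a was at 3.36 (97Q against 25Q, vehicle), -0.51 (97Q against 25Q, RGFP109) and -1.45 (RGFP109 in 97Q). Efr3b was at -0.39 (97Q against 25Q, vehicle), -0.13 (average) and 0.089 (RGFP109 in 97Q). Pi4kb was at 0.20 (97Q against 25Q, vehicle) and -0.46 (interaction), Pi4ka at -0.017 and Fam126b at 0.093 (97Q against 25Q, RGFP109), Ttc7b at -0.34 (RGFP109 in 97Q) and Fam126b at 0.29 (interaction). Without the neurons rich in astrocyte markers, Efr3a was at -0.24 (RGFP109 in 97Q) and -0.058 (97Q against 25Q, RGFP109), Fam126a at -0.11 (97Q against 25Q, RGFP109), and the interaction of Efr3b at -0.028 and of Pi4kb at -1.25.

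Leaving out 1 batch at a time gave these ranges where a sign turned. For 97Q against 25Q under vehicle they were -0.48 to 0.56 (Efr3b) and -0.56 to 0.28 (Fam126b). Under RGFP109 they were -0.22 to 0.61 (Pi4ka), -0.75 to 0.53 (Pi4kb) and -0.53 to 0.60 (Fam126a), and in the average -0.091 to 0.54 (Efr3b) and -1.13 to 0.086 (Pi4kb). For RGFP109 in 97Q neurons they were -0.25 to 0.31 (Efr3a), -3.43 to 0.69 (Efr3b), -0.048 to 0.93 (Pi4ka), -0.56 to 0.53 (Ttc7b) and -0.33 to 1.30 (Fam126a), and in 25Q neurons -0.36 to 0.31 (Fam126b). For the interaction they were -0.27 to 0.78 (Efr3b) and -0.97 to 0.090 (Fam126b). Efr3a under vehicle ran from 1.36 to 1.84 and under RGFP109 from -0.56 without batch 1 to 0.57.

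Without the cell with the most counts in each sum, chosen after seeing the data, the mean within-batch difference of Efr3a was 3.50 (97Q against 25Q, vehicle) and 3.11 (RGFP109 in 25Q). With 3 or 4 cells per sum in batch 2, levels there rest on single cells.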
